A study of Mus musculus with 12 samples.

Results

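Midbrain astrocyte cultures of C57BL/6 mice were compared after 4 and after 2 weeks of PTB knockdown. The members were the 4 midbrain libraries labelled shPTB, 2 from 4 weeks and 2 from 2 weeks, out of 12 libraries in the series. All 4 carried a short hairpin RNA against PTB (the protein encoded by Ptbp1) and had been kept in medium for neuronal differentiation, so the groups differed in time alone as far as the labels say. The 4 cortex libraries with the same hairpin, medium and times served for a test of whether the regions changed alike. The 4 mock libraries, from cultures without the hairpin in growth medium, were compared with no group here, but they entered an alternative fit to all 12 libraries. Nothing in the labels says that the libraries of a group came from separate cultures or animals, so the p-values reflect how far these libraries lie apart, which may be technical.

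PTB binds RNA and represses the splicing of neuronal exons, and it holds down its neuronal relative PTBP2 (nPTB). In neurons a microRNA lowers PTB, and the loss of PTB is held to weaken the REST complex, a repressor of neuronal genes. Astrocytes clear glutamate, buffer water and ions and supply lipids, and they are marked by GFAP, the glutamate transporters SLC1A2 and SLC1A3, aquaporin-4 and SOX9. The comparison asks what moved between the second and the fourth week of a protocol directed at turning astrocytes into neurons.

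Levels are read counts relative to library size (CPM), scaled between libraries by the trimmed mean of M values (TMM). Changes are log2 fold changes of 4 over 2 weeks ± standard error from edgeR's quasi-likelihood test, and a gene is said to rise or fall at a Benjamini-Hochberg adjusted p under 0.05 over 12401 genes. Reads numbered 8843602 and 9048543 in the 4-week libraries and 9429980 and 9527843 in the 2-week libraries, and a count of 0 in one of them allows up to 0.276 to 0.337 CPM (3 reads, counting error only). At least 1 read fell on 17707 and 17765 genes at 4 weeks, against 19107 and 19269 genes at 2 weeks. Libraries of a shPTB group lay close together: 0.804 to 1.24% of genes differed by over 2-fold within a pair, against 16.0 and 18.7% within the mock pairs. These were bulk cultures, so fewer cells of a type and less RNA per cell cannot be told apart. Each gene said to rise or fall also did so without each of the 4 midbrain libraries in turn, unless stated.

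The promoters of 2 interferon-induced genes and 2 hypoxia genes are shown first, because these were the gene groups in which a known promoter element could be looked for. The windows are the 250 bases before the RefSeq start site on GRCm38.p6, on the gene's own strand. Capitals mark the core of the interferon-stimulated response element, searched as 2 copies of GAAA with 2 bases between them on either strand, in Ifit1 (chr19:34640639-34640888, plus strand) and Ifit3 (chr19:34583279-34583528, plus strand).
Ifit1: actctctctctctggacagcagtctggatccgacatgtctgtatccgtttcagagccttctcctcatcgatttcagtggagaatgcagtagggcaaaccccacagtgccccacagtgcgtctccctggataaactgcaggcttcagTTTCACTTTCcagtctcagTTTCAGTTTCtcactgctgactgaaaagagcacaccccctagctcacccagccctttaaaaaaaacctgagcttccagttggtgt
Ifit3: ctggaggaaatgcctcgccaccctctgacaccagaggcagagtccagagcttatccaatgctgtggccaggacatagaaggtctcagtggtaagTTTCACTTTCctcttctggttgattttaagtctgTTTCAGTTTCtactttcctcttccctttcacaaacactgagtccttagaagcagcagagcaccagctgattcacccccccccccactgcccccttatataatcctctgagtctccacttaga
Ifit1 and Ifit3 each held 2 matches. The core was in 3.04% of the 27025 promoters in the table and in 10 of the 20 interferon response genes tested that had an entry. In the next pair, capitals mark the core of the hypoxia response element, ACGTG on either strand, in Car9 (chr4:43506776-43507025, plus strand) and Egln3 (chr12:54203875-54204124, minus strand).
Car9: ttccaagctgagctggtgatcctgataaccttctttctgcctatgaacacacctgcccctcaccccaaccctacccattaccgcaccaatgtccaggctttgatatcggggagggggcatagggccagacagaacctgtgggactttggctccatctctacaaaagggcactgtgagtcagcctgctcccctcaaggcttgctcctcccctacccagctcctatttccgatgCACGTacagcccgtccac
Egln3: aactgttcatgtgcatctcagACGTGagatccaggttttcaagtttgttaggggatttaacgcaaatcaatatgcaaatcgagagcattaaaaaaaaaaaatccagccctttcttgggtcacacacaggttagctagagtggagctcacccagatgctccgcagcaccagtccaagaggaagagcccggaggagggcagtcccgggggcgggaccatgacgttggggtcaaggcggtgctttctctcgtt
Each held 1 match, 18 bases before the start in Car9 and 229 in Egln3. This short core was in 16.6% of all promoters and in 12 of the 24 glycolysis and hypoxia genes with an entry. Ifit1 and Ifit3 rose and Car9 and Egln3 fell, with values given below. A match is a description of the letters and not of binding.

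Between 2 and 4 weeks, 3791 of 12401 genes changed (30.6%), 1910 of them towards higher levels at 4 weeks (15.4%) and 1881 towards lower (15.2%). Large changes were mostly falls, with 738 genes lower by 2-fold or more (5.95%) and 160 higher by as much (1.29%). The libraries of the groups did not overlap for 65.3% of all genes. The direction of the calls followed the level: of 896 genes over 100 CPM, 57.8% rose and 19.4% fell, and of 3903 genes under 3 CPM, 1.69% rose and 12.1% fell. Small counts give fewer calls, and a gene of low level could pass the count filter through the libraries where it was highest. The part of these 2 limits in the pattern was not tested. The number of calls differed between fits. With the mock libraries in the fit, the test was passed by 388 of 14607 genes (2.66%). Of these, 140 were higher (0.958% of those tested) and 248 lower (1.70%), and 386 of these were called in the same direction in the fit above. DESeq2 called 2298 genes (18.5%), 1429 higher (11.5%) and 869 lower (7.01%). Scaling to total reads moved the median of all genes by more than 0.1, to -0.21 from -0.05, and gave 4112 genes of which 27.8% were higher, against 50.4% with TMM. Changes below are relative to the TMM scale, and counts of list members that rose or fell are to be read beside 15.4% and 15.2% of all genes. For members of low level, the shares under 3 CPM given above are the closer background. At 3 to 10 CPM, 6.40% of 3516 genes rose and 15.4% fell.

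**Figure D1:**
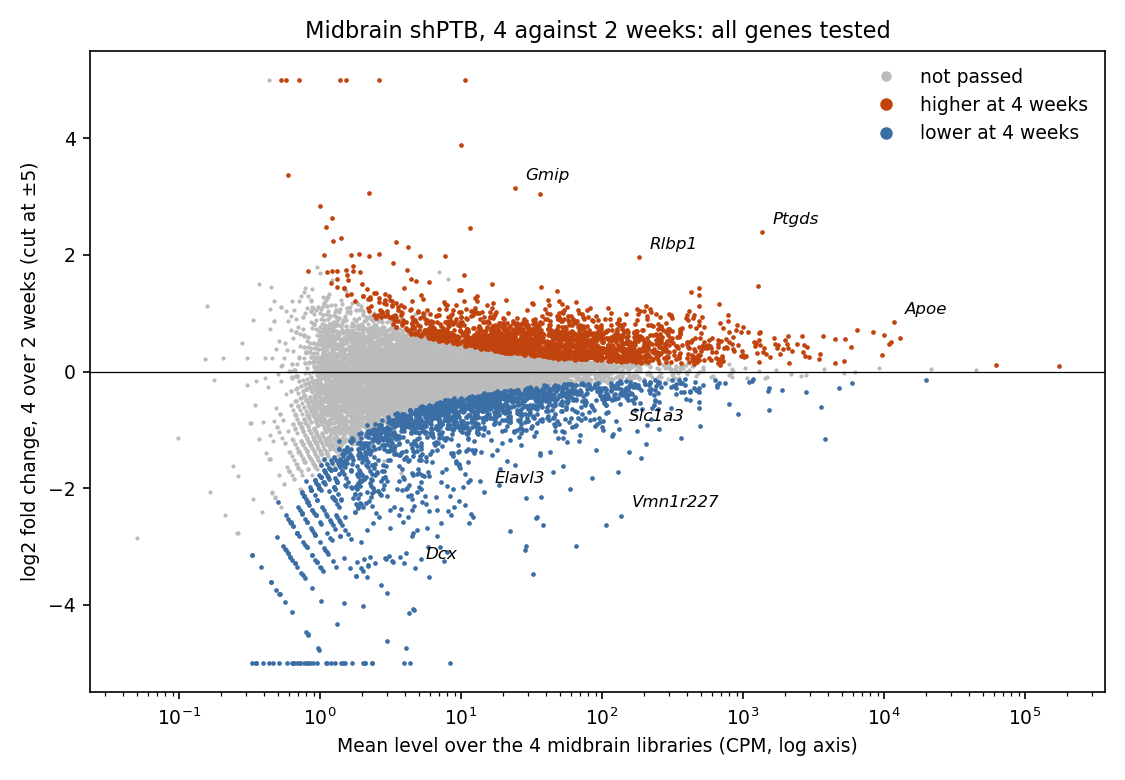
Each point is 1 of 12401 genes, with its mean level over the 4 midbrain libraries in CPM on a log axis and its log2 fold change of 4 over 2 weeks, drawn at the edge where it passes ±5. Genes higher at 4 weeks (1910, orange) gather at high levels and genes lower at 4 weeks (1881, blue) reach the larger changes at low levels.

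The knocked-down gene was measured first. Ptbp1 (chr10:79854427-79864771) stood at 137 and 127 CPM at 4 weeks, against 88.1 and 75.8 CPM at 2 weeks, and was higher at 4 weeks in both libraries (0.69 ± 0.07, adjusted p = 4.39e-08). Of its 3′ end, 29.6% is shared with another gene, so some of its reads could be assigned elsewhere. The call ended with all 12 libraries (adjusted p = 0.0904). Ptbp2, the neuronal paralogue, was at 19.3 and 20.8 CPM at 4 weeks, against 21.7 and 23.03 CPM at 2 weeks, which did not pass (-0.16 ± 0.12, adjusted p = 0.336). It fell by the test with the total-read scaling (log2 fold change -0.32, adjusted p = 0.0418) and with an offset for transcript length (-0.91, adjusted p = 0.00391). Reads came from towards the 3′ ends, where counts need not follow transcript length, so this offset may not suit these data, here and below. Rest, which encodes the repressor itself, was at 1.57 and 1.42 CPM at 4 weeks, against 1.89 and 2.03 CPM at 2 weeks and did not pass (-0.39 ± 0.42, adjusted p = 0.523). Of 14 tested genes of PTB and REST, 2 rose and 2 fell, near the shares of all genes (15.4% and 15.2%). Their median log2 fold change was -0.04 beside -0.05 over all genes. The falls were Rcor1, a REST corepressor, at 6.17 and 5.03 CPM at 4 weeks, against 13.9 and 12.9 CPM at 2 weeks (-1.26 ± 0.18, adjusted p = 6.68e-06), and Elavl3, a neuronal RNA-binding protein described with the neuronal genes. Ctdsp1, a phosphatase of the REST complex, had 95.4 and 88.7 CPM at 4 weeks, against 71.4 and 77.7 CPM at 2 weeks (0.30 ± 0.07, adjusted p = 0.00199), a call that ended without the first 2-week library (adjusted p = 0.0501), with the total-read scaling (adjusted p = 0.151) and with all 12 libraries (adjusted p = 0.279).

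Several genes of young neurons fell. Of 26 pan-neuronal markers tested, 11 fell and 3 rose, with a median of -0.35, and with all 12 libraries 4 fell and 1 rose. Dcx, which encodes the microtubule protein doublecortin of migrating neurons (chrX:143855842-143933311), had 1.01 and 0.656 CPM at 4 weeks, against 6.34 and 10.96 CPM at 2 weeks (-3.36 ± 0.34, adjusted p = 2.32e-08). Tubb3, the neuronal β-tubulin, had 3.59 and 2.52 CPM at 4 weeks, against 10.8 and 11.8 CPM at 2 weeks (-1.89 ± 0.22, adjusted p = 2.17e-07). Elavl3 had 4.94 and 6.34 CPM at 4 weeks, against 24.4 and 22.8 CPM at 2 weeks (-2.06 ± 0.18, adjusted p = 2.06e-09). Both 4-week libraries lay below both 2-week libraries in all 3 genes. Ina, a neuronal intermediate filament, had 1.80 and 1.31 CPM at 4 weeks, against 8.14 and 7.37 CPM at 2 weeks (-2.31 ± 0.26, adjusted p = 1.29e-07), again with no overlap. Map2, a dendritic microtubule protein, fell less, with 18.2 and 18.5 CPM at 4 weeks, against 25.2 and 24.97 CPM at 2 weeks (-0.45 ± 0.12, adjusted p = 0.00408), and its call ended with DESeq2 (adjusted p = 0.0862) and with all 12 libraries (adjusted p = 0.328). Rbfox3, which encodes NeuN of mature neurons, had 3 reads in all at 4 weeks and 18 at 2 weeks, a ratio of 0.198 with an exact 95% counting interval of 0.0373 to 0.677. Its adjusted p of 0.0467 rose to 0.112 to 0.268 without any 1 of the 4 libraries, and the call ended each time. Nefh, a heavy neurofilament, had no read in the 4 libraries.

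The summed level of the pan-neuronal list went the other way, at 2997 and 2924 CPM at 4 weeks, against 2409 and 2380 CPM at 2 weeks. Thy1, a surface protein of neurons that fibroblasts also carry, made up most of that sum, with 2021 and 1932 CPM at 4 weeks, against 1341 and 1297 CPM at 2 weeks (0.58 ± 0.04, adjusted p = 8.54e-11). Its call ended with all 12 libraries (adjusted p = 0.145), and its sign turned with an offset for transcript length, to -0.47 (adjusted p = 0.000184). The member of the list that rose with all 12 libraries was thus another one, which is not named here. Syn1, a synaptic vesicle protein of the same list, did not pass, although it rose with the length offset (0.60, adjusted p = 0.021). Among 20 genes of synaptic vesicles and release, 5 rose and 3 fell, with a median of 0.16 that became -0.01 with the total-read scaling. Amph, an endocytic protein of synapses, fell at 1.01 and 1.09 CPM at 4 weeks, against 3.41 and 3.22 CPM at 2 weeks (-1.64 ± 0.38, adjusted p = 0.00153). Sv2a, a vesicle glycoprotein, had 3.82 and 3.94 CPM at 4 weeks, against 9.28 and 9.21 CPM at 2 weeks (-1.25 ± 0.21, adjusted p = 5.72e-05), although not with the length offset (adjusted p = 0.112). Syn2, which tethers vesicles, had 57.6 and 51.1 CPM at 4 weeks, against 29.6 and 32.5 CPM at 2 weeks (0.80 ± 0.09, adjusted p = 2.14e-07). The release genes named thus moved in both directions. Among 15 ion channel genes 2 rose and 3 fell, near the shares of all genes (15.4% and 15.2%), and with all 12 libraries 1 rose and 2 fell. Their summed level was higher at 4 weeks, at 1283 and 1301 CPM, against 921 and 967 CPM at 2 weeks. Of those that rose, the potassium channel Kcnk1 lost its call with all 12 libraries (log2 fold change 0.51, adjusted p = 0.181). Of those that fell, the sodium channel subunit Scn3a had 0.449 and 0.109 CPM at 4 weeks, against 3.12 and 3.50 CPM at 2 weeks (-3.51 ± 0.54, adjusted p = 1.52e-05). Camk2b, a calcium-dependent kinase of synapses that stood among the 15 largest falls of protein-coding genes averaging at least 10 CPM at the higher time with no overlap between the groups, had 2.92 and 3.50 CPM at 4 weeks, against 18.1 and 21.01 CPM at 2 weeks (-2.60 ± 0.19, adjusted p = 9.34e-11). Dcx, Tubb3, Elavl3, Ina, Amph, Sv2a, Syn2, Scn3a and Camk2b also passed with all 12 libraries.

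Defining markers of dopaminergic neurons were at or near 0 reads at both times. Th, or tyrosine hydroxylase, which makes the precursor of dopamine, had 4 reads at 4 weeks and 2 at 2 weeks, a ratio of 2.37 with a counting interval of 0.34 to 26.2. Slc6a3, the dopamine transporter, and the midbrain factors Pitx3 and Foxa2 had no read in any of the 4 libraries. Nr4a2, a dopaminergic transcription factor, was at 0.673 and 0.656 CPM at 4 weeks, against 1.04 and 1.47 CPM at 2 weeks (-0.91 ± 0.58, adjusted p = 0.255). En1, another midbrain factor, had reads and did not pass, although it fell with the total-read scaling (-0.50, adjusted p = 0.0395). Of 13 dopaminergic and midbrain genes tested, 1 rose and 2 fell. The falls were Maoa, a monoamine oxidase, and Calb1, or calbindin. The call of Calb1 ended without any 1 of the 4 libraries, with DESeq2 (adjusted p = 0.3) and with all 12 libraries (adjusted p = 0.345). The one that rose was Aldh1a1, a retinaldehyde dehydrogenase found in some dopamine neurons and also in glia, with 697 and 724 CPM at 4 weeks, against 253 and 273 CPM at 2 weeks (1.43 ± 0.05, adjusted p = 6.69e-17). Its adjusted p remained under the threshold with all 12 libraries.

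Of 13 GABAergic genes tested, 1 rose and 3 fell, with a median of -0.65. Over all genes 15.4% rose and 15.2% fell, and the counts for the small lists in this paragraph lie near those shares. Pvalb, which encodes the calcium-binding protein parvalbumin, rose and had 157 and 155 CPM at 4 weeks, against 73.9 and 81.3 CPM at 2 weeks (1.01 ± 0.07, adjusted p = 5.68e-11), also with all 12 libraries. Gad2, a GABA-synthesizing enzyme, had 0.561 and 0.328 CPM at 4 weeks, against 2.65 and 1.38 CPM at 2 weeks (-2.14 ± 0.55, adjusted p = 0.00368), a call that ended without the second 4-week library (adjusted p = 0.0541), without the first 2-week library (adjusted p = 0.0928) and with all 12 (adjusted p = 0.0728). Calb2, or calretinin, had 43.2 and 45.1 CPM at 4 weeks, against 86.8 and 82.6 CPM at 2 weeks (-0.94 ± 0.08, adjusted p = 3.89e-10), with an adjusted p of 0.0768 with all 12 libraries. Of 13 glutamatergic and cortical genes tested, 3 fell and 1 rose, with a median of -0.68. Gria2, an AMPA receptor subunit, had 1.01 and 1.31 CPM at 4 weeks, against 4.45 and 3.32 CPM at 2 weeks (-1.73 ± 0.34, adjusted p = 0.000285), and fell with all 12 libraries too. Slc17a6, the vesicular glutamate transporter of the midbrain, and the cortical factors Tbr1, Eomes, Neurod1 and Neurod6 had no read. Neurogenic transcription factors numbered 12, of which 3 fell and none rose (median -0.27), and none passed in edgeR with all 12 libraries or in DESeq2, where 3 had an unadjusted p under 0.05 in each. Neurog1, Neurog2 and Nhlh1 were without reads.

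**Figure D2:**
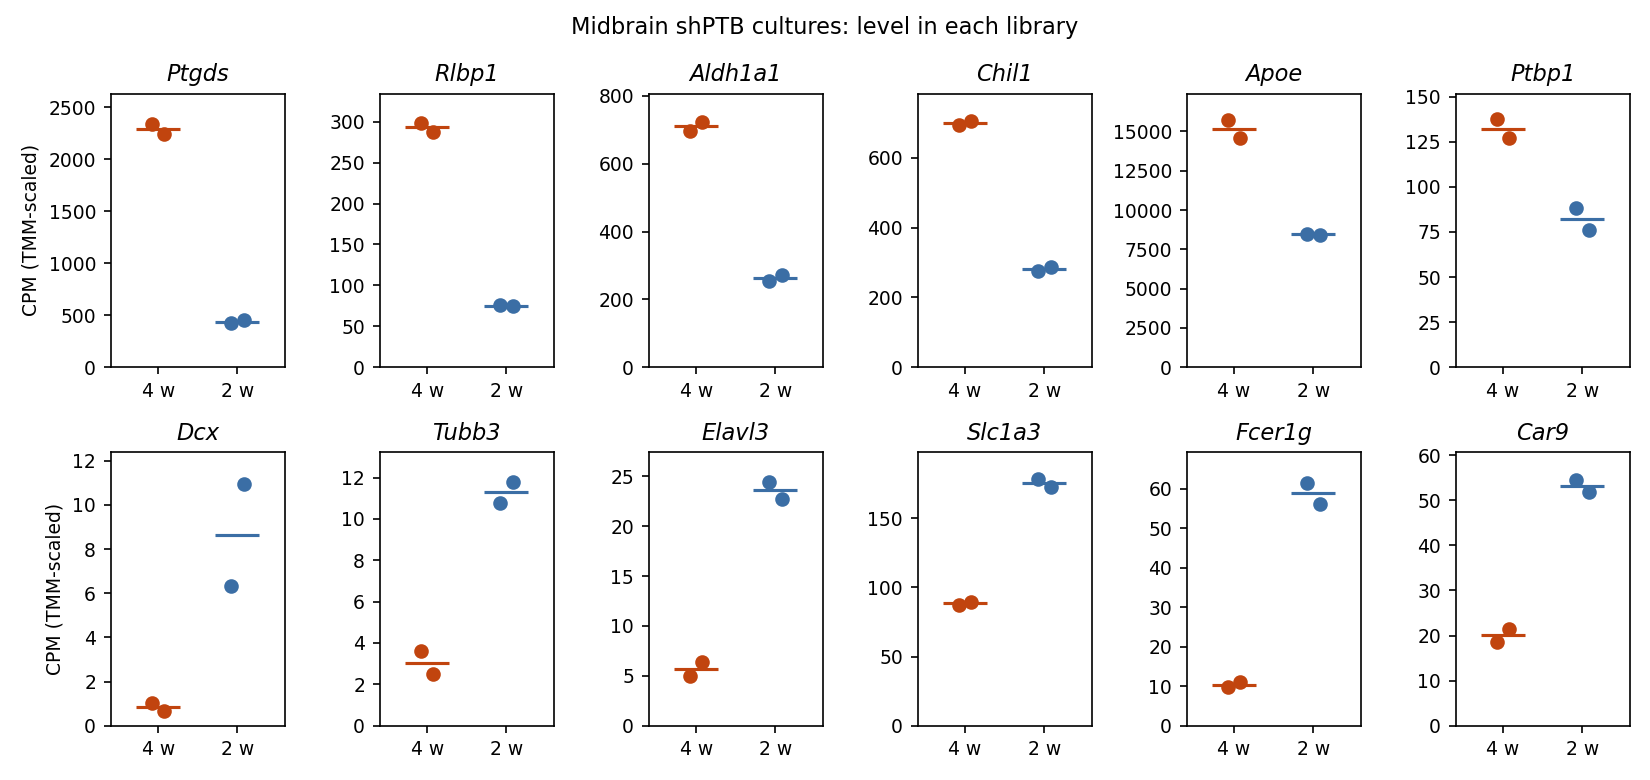
TMM-scaled level in CPM of 12 genes in each midbrain shPTB library, with 4 weeks left of 2 weeks, points for libraries and lines for the mean of 2. The upper genes were higher at 4 weeks (Ptgds at 2343 and 2247 CPM, against 426 and 453 CPM at 2 weeks) and the lower ones lower, with no overlap between the groups in any of them.

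Astrocyte genes moved in both directions. Of 30 tested, 11 rose and 9 fell, with a median of 0.07 that turned to -0.09 with the total-read scaling, and the list summed to 48709 and 46864 CPM at 4 weeks, against 33733 and 33205 CPM at 2 weeks. None of the 30 was without reads over the 4 libraries. Apoe, the main apolipoprotein of astrocytes, was the most abundant of those named, with 15758 and 14563 CPM at 4 weeks, against 8479 and 8412 CPM at 2 weeks (0.84 ± 0.04, adjusted p = 3.6e-14). Gfap, the astrocyte filament, had 6912 and 6545 CPM at 4 weeks, against 5190.5 and 4861 CPM at 2 weeks (0.42 ± 0.04, adjusted p = 1.73e-08). Sox9, the astrocyte transcription factor, had 634 and 612 CPM at 4 weeks, against 443 and 429 CPM at 2 weeks (0.51 ± 0.05, adjusted p = 4.25e-09). All 3 were higher in both 4-week libraries. The other way went 3 membrane proteins, each lower in both 4-week libraries. Slc1a3, the glutamate transporter GLAST, had 87.5 and 89.4 CPM at 4 weeks, against 179 and 172 CPM at 2 weeks (-0.99 ± 0.06, adjusted p = 4.83e-12). Aqp4, the water channel of astrocyte endfeet, had 155 and 166 CPM at 4 weeks, against 288 and 278 CPM at 2 weeks (-0.82 ± 0.06, adjusted p = 2.45e-11). Gja1, the gap junction protein connexin 43, had 17.3 and 19.2 CPM at 4 weeks, against 33.05 and 32.2 CPM at 2 weeks (-0.84 ± 0.12, adjusted p = 4.09e-06). Slc1a2, the glutamate transporter GLT-1, did not pass, with 93.7 and 102 CPM at 4 weeks, against 95.1 and 90.5 CPM at 2 weeks (0.08 ± 0.07, adjusted p = 0.407). With all 12 libraries Slc1a3 passed, and the adjusted p was 0.112 for Apoe, 0.442 for Gfap, 0.15 for Sox9, 0.0653 for Aqp4 and 0.129 for Gja1.

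Of 26 genes of reactive astrocytes, 4 rose and 8 fell (median -0.11), none with all 12 libraries, where 5 had an unadjusted p under 0.05 in edgeR, beside 8 calls with DESeq2. Aspg, an asparaginase-like enzyme, had 353 and 319 CPM at 4 weeks, against 184 and 169 CPM at 2 weeks (0.93 ± 0.06, adjusted p = 7.79e-12), and C3, a complement protein, had 2339 and 2379 CPM at 4 weeks, against 1653 and 1601 CPM at 2 weeks (0.54 ± 0.04, adjusted p = 1.46e-10). Vim, an intermediate filament of immature and reactive astrocytes, had 1119.6 and 1257 CPM at 4 weeks, against 1861 and 1902 CPM at 2 weeks (-0.66 ± 0.05, adjusted p = 9.61e-11). Among 20 neural progenitor genes, 8 fell and none rose, with a median of -0.52, and 2 fell with all 12 libraries. Id2, an inhibitor of differentiation factors, fell at 39.95 and 39.4 CPM at 4 weeks, against 66.6 and 72.3 CPM at 2 weeks (-0.81 ± 0.08, adjusted p = 2.12e-08). Hes5, a Notch target, had 3 reads in all at 4 weeks and 26 at 2 weeks, a ratio of 0.137 with a counting interval of 0.0265 to 0.447. Its call (adjusted p = 0.00841) ended without the first 4-week library (adjusted p = 0.114), the second 4-week library (adjusted p = 0.0557) and the second 2-week library (adjusted p = 0.0527), and with DESeq2 (adjusted p = 0.0758). Of 17 Wnt and BMP genes 2 fell and none rose. The one named, Wnt5a, a secreted Wnt ligand, had 8.98 and 8.42 CPM at 4 weeks, against 16.2 and 16.9 CPM at 2 weeks (-0.93 ± 0.17, adjusted p = 0.000174), and an adjusted p of 0.0664 with all 12 libraries.

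Some genes of dividing cells fell. Of 16 proliferation genes tested, 7 fell and 1 rose, with a median of -0.79, and 2 fell with all 12 libraries. The list summed to 137 and 143 CPM at 4 weeks, against 190 and 194 CPM at 2 weeks. Over all genes under 3 CPM, falls (12.1%) also outnumbered rises (1.69%), and the part of low level in this list was not tested. Top2a, the topoisomerase of dividing cells, had 3.82 and 3.61 CPM at 4 weeks, against 12.1 and 11.6 CPM at 2 weeks (-1.67 ± 0.20, adjusted p = 4.18e-07), and Aurkb, a mitotic kinase, had 0.224 and 0.328 CPM at 4 weeks, against 1.70 and 2.49 CPM at 2 weeks (-2.86 ± 0.62, adjusted p = 0.000808). Both passed with all 12 libraries. Mki67, the proliferation marker Ki-67, had 1.01 and 0.328 CPM at 4 weeks, against 2.18 and 3.13 CPM at 2 weeks (-1.97 ± 0.53, adjusted p = 0.00581), but not without the second 4-week library (adjusted p = 0.111) or the second 2-week library (adjusted p = 0.0878), nor with DESeq2 (adjusted p = 0.061) or all 12 libraries (adjusted p = 0.0664). Of 19 cell cycle inhibitors and D cyclins, 9 fell and 1 rose (median -0.36), none with all 12 libraries, where 4 had an unadjusted p under 0.05 in edgeR, beside 5 calls with DESeq2. Mdm2, the ubiquitin ligase of p53, had 8.19 and 8.53 CPM at 4 weeks, against 14.8 and 15.7 CPM at 2 weeks (-0.86 ± 0.18, adjusted p = 0.000457), and Gadd45g, a growth arrest gene, had 160.5 and 149 CPM at 4 weeks, against 103 and 100.2 CPM at 2 weeks (0.60 ± 0.06, adjusted p = 5.3e-08).

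Most of the genes known from microglia fell. Of 12 tested, 7 fell and none rose, with a median of -1.17, and 4 fell with all 12 libraries. Fcer1g, the Fc receptor γ chain, had 9.76 and 11.05 CPM at 4 weeks, against 61.6 and 56.2 CPM at 2 weeks (-2.50 ± 0.11, adjusted p = 9.57e-15). Tyrobp, an adaptor of the TREM2 receptor, had 3.03 and 2.19 CPM at 4 weeks, against 14.5 and 12.9 CPM at 2 weeks (-2.39 ± 0.20, adjusted p = 1.13e-09). Spi1, the myeloid transcription factor PU.1, had 3.25 and 4.05 CPM at 4 weeks, against 17.6 and 17.97 CPM at 2 weeks (-2.28 ± 0.17, adjusted p = 9.58e-11), with an adjusted p of 0.0895 with all 12 libraries. In each, the 2-week libraries were several times higher. Among the 15 largest falls, chosen under the same limit of 10 CPM and no overlap, were 3 more genes known from myeloid or other blood cells. The lectin receptor Clec4a1 had 1.46 and 1.86 CPM at 4 weeks, against 15.8 and 12.7 CPM at 2 weeks (-3.09 ± 0.23, adjusted p = 9.7e-11), the phagocyte oxidase subunit Cybb had 1.35 and 1.75 CPM at 4 weeks, against 13.9 and 11.2 CPM at 2 weeks (-3.01 ± 0.24, adjusted p = 3.94e-10), and the GTPase Rac2 had 1.80 and 1.53 CPM at 4 weeks, against 9.75 and 13.9 CPM at 2 weeks (-2.82 ± 0.26, adjusted p = 3.24e-09). The whole microglial list summed to 114 and 115 CPM at 4 weeks, against 213 and 200.5 CPM at 2 weeks, and no member of it was at 0 reads in all 4 libraries. The part of these cells in other results was not tested.

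Markers of further cell types were mixed, beside 15.4% of all genes higher and 15.2% lower. Of 13 fibroblast and pericyte markers, 2 rose and 4 fell (median -0.20), and Col1a2, a collagen I chain, had 39.7 and 43.5 CPM at 4 weeks, against 73.9 and 77.3 CPM at 2 weeks (-0.86 ± 0.09, adjusted p = 3.15e-08), also with all 12 libraries. Of 13 oligodendrocyte and precursor markers 3 rose and 2 fell (median -0.24), none with all 12 libraries, where 3 had an unadjusted p under 0.05 in edgeR, beside 3 calls with DESeq2. Sox10, the oligodendrocyte transcription factor, had 15.3 and 15.97 CPM at 4 weeks, against 9.75 and 11.98 CPM at 2 weeks (0.52 ± 0.13, adjusted p = 0.00331), a rise that ended without the first 2-week library (adjusted p = 0.0731). Of 6 endothelial markers 1 passed, the junction protein Cdh5, and not without any 1 of the 4 libraries (adjusted p = 0.0588 to 0.261). Of 13 ependymal and cilium genes 2 rose and 3 fell. Cfap126, a cilium protein, had 5.27 and 6.34 CPM at 4 weeks, against 10.9 and 12.1 CPM at 2 weeks (-0.98 ± 0.20, adjusted p = 0.000414), with an adjusted p of 0.112 with all 12 libraries and 0.388 with the length offset. Of 27 genes of the extracellular matrix, 13 fell and 1 rose (median -0.53), of which 1 fall passed with all 12 libraries. Of 14 contractile actin genes 2 rose and 4 fell (median -0.14), and Actn1, an actin crosslinker, had 22.1 and 18.05 CPM at 4 weeks, against 31.8 and 33.8 CPM at 2 weeks (-0.71 ± 0.12, adjusted p = 4.4e-05), with an adjusted p of 0.32 with all 12 libraries.

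**Figure D3:**
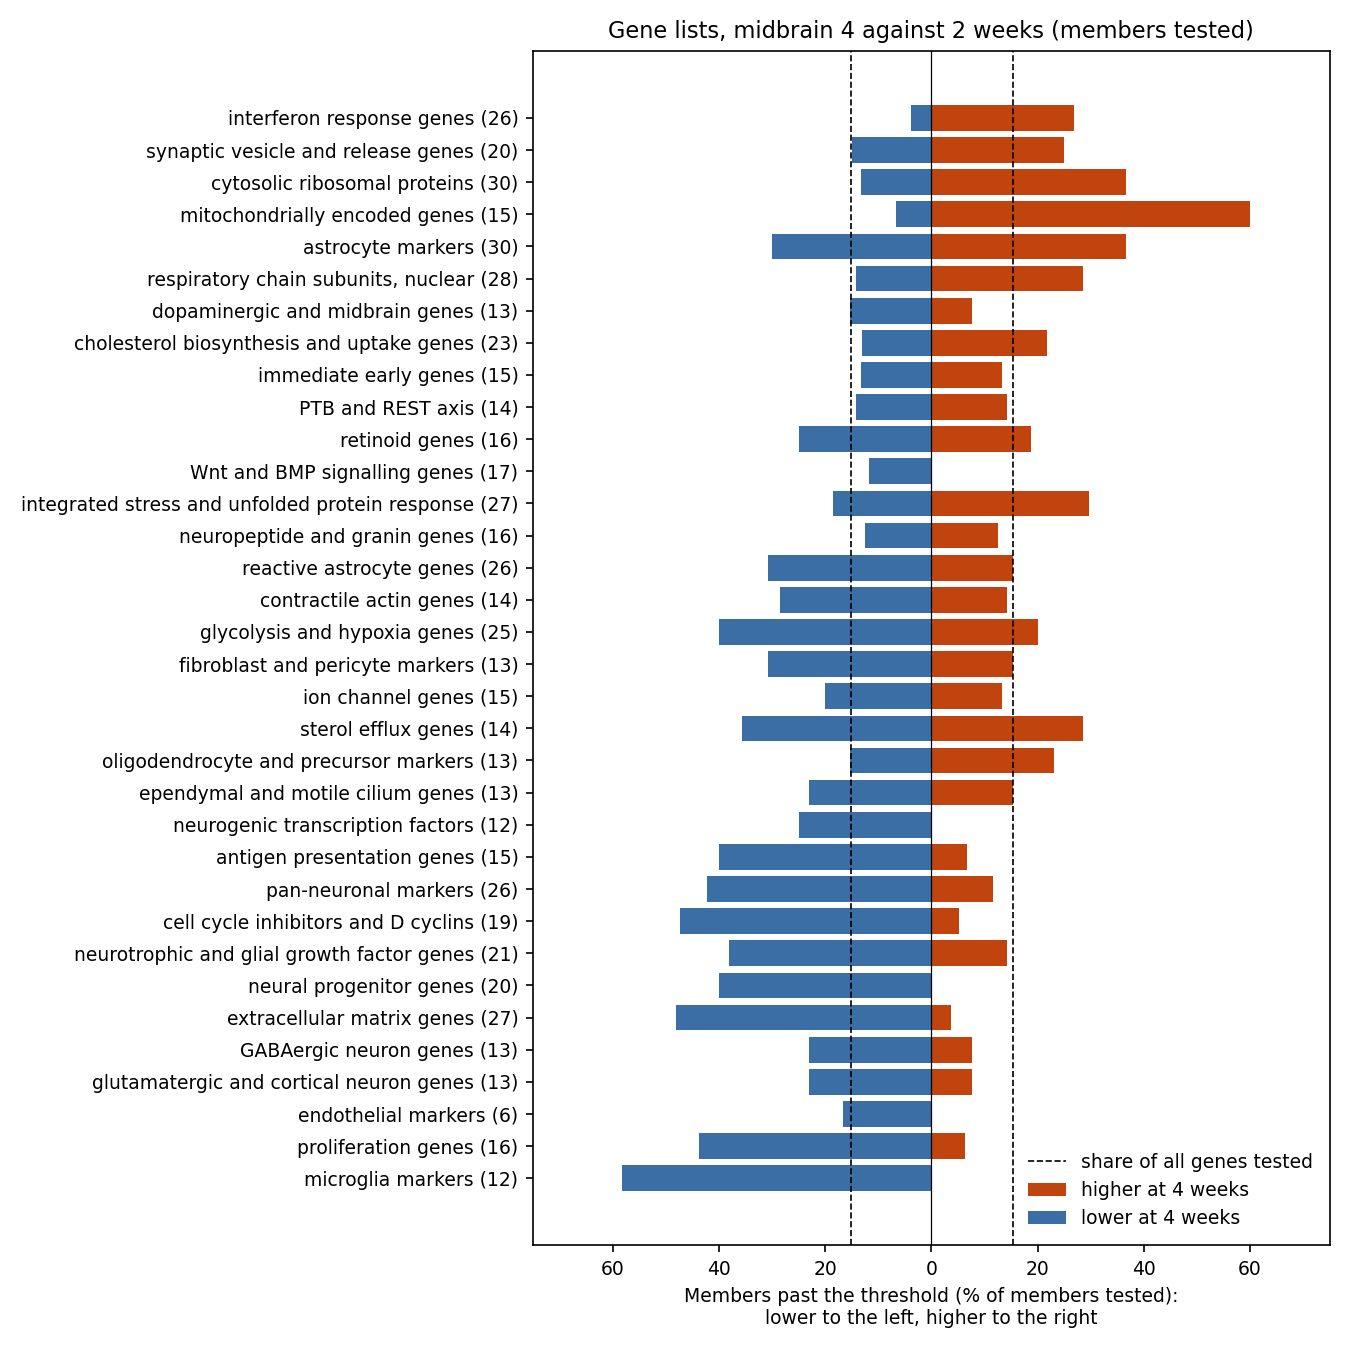
Share of the tested members of each of 34 gene lists (number in brackets) that were higher (orange, to the right) or lower (blue, to the left) at 4 weeks, in order of the median change. Dashed lines give the shares over all genes tested, 15.4% higher and 15.2% lower, and microglia markers lie farthest to the left with 7 of 12 lower.

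The largest rises among genes with a mean of at least 10 CPM included secreted proteins, enzymes and a retinoid-binding protein. Ptgds, the lipocalin-type prostaglandin D synthase of the meninges, choroid plexus and glia (chr2:25466709-25470046), had 2343 and 2247 CPM at 4 weeks, against 426 and 453 CPM at 2 weeks (2.38 ± 0.05, adjusted p = 5.61e-21). Rlbp1, a retinaldehyde-binding protein of Müller glia and retinal pigment epithelium, had 299 and 288 CPM at 4 weeks, against 75.7 and 74.7 CPM at 2 weeks (1.96 ± 0.06, adjusted p = 1.1e-18). Chil1, a chitinase-like protein secreted by reactive astrocytes, had 694 and 705 CPM at 4 weeks, against 276 and 287 CPM at 2 weeks (1.31 ± 0.05, adjusted p = 1.67e-16). In each of these genes both 4-week libraries stood above both 2-week libraries. Vwa1, a matrix protein of basement membranes, had 608 and 631 CPM at 4 weeks, against 241 and 240.1 CPM at 2 weeks (1.37 ± 0.05, adjusted p = 8.55e-17). Bdh2, a cytosolic hydroxybutyrate dehydrogenase, had 70.7 and 67.5 CPM at 4 weeks, against 27.7 and 25.4 CPM at 2 weeks (1.38 ± 0.09, adjusted p = 5.96e-12). Hsf4, a heat shock transcription factor best known from the lens, had 16.4 and 15.6 CPM at 4 weeks, against 4.64 and 5.44 CPM at 2 weeks (1.66 ± 0.20, adjusted p = 3.7e-07). Gmip, a GTPase-activating protein, had the largest rise among those whose 3′ end is nearly unshared, with 48.7 and 38.3 CPM at 4 weeks, against 5.97 and 3.87 CPM at 2 weeks (3.14 ± 0.24, adjusted p = 1.17e-10). Ppp1r1b, the phosphatase inhibitor DARPP-32, had 22.4 and 26.2 CPM at 4 weeks, against 7.01 and 10.2 CPM at 2 weeks (1.49 ± 0.15, adjusted p = 1.79e-08), and Resp18, a protein of neuroendocrine secretory granules, had 13.6 and 11.2 CPM at 4 weeks, against 3.41 and 2.86 CPM at 2 weeks (1.98 ± 0.24, adjusted p = 3.7e-07). All of these passed with all 12 libraries. Among 16 retinoid genes as a list, 3 rose and 4 fell (median -0.05). Rara, a retinoic acid receptor, fell at 2.92 and 2.73 CPM at 4 weeks, against 7.29 and 6.45 CPM at 2 weeks (-1.28 ± 0.25, adjusted p = 0.000344).

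Counts of some of the most changed genes are uncertain because other genes hold the same 3′ sequence. Gm14434, a predicted gene whose 3′ end is wholly shared, had 18.1 and 24.5 CPM at 4 weeks, against 0 CPM in both libraries at 2 weeks and was at least 152-fold higher at 4 weeks, against 3 reads over the group. Gm4724, also wholly shared, had 0 CPM in both libraries at 4 weeks, against 14.1 and 19.4 CPM at 2 weeks and was at least 101-fold lower, and its call ended with DESeq2 (adjusted p = 0.17) and with all 12 libraries (adjusted p = 0.238). Both lie on chromosome 2. The ribosomal protein gene Rpl10 (77.0% shared) had 4.15 and 16.95 CPM at 4 weeks, against 53.9 and 77.9 CPM at 2 weeks, with replicates far apart. The class I gene H2-T23 (42.3% shared) had 15.6 and 22.2 CPM at 4 weeks, against 0.568 and 1.93 CPM at 2 weeks, and Hook2, a microtubule linker (41.3% shared), had 31.98 and 27.5 CPM at 4 weeks, against 195 and 174 CPM at 2 weeks. Mtm1, the phosphoinositide phosphatase myotubularin, had no shared 3′ sequence and fell to 6.40 and 6.56 CPM at 4 weeks, against 48.8 and 53.99 CPM at 2 weeks (-2.98 ± 0.14, adjusted p = 2.66e-14). Caprin2, an RNA-binding protein, was likewise unshared, with 4.71 and 2.62 CPM at 4 weeks, against 22.2 and 19.3 CPM at 2 weeks (-2.50 ± 0.21, adjusted p = 5.62e-10).

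Lipid genes moved in both directions. Of 14 sterol efflux genes, 4 rose and 5 fell (median -0.23). Apoe rose, as did Npc2, a lysosomal cholesterol carrier, with 1047 and 1021 CPM at 4 weeks, against 544 and 513 CPM at 2 weeks (0.97 ± 0.05, adjusted p = 2.3e-14). Abca1, the pump that loads cholesterol onto apolipoproteins, fell at 31.5 and 36.4 CPM at 4 weeks, against 79.3 and 77.8 CPM at 2 weeks (-1.21 ± 0.09, adjusted p = 3.87e-11). Npc2 and Abca1 passed with all 12 libraries. Of 23 genes of cholesterol synthesis and uptake, 5 rose and 3 fell (median 0.01), none with all 12 libraries, where 3 had an unadjusted p under 0.05 in edgeR, beside 4 calls with DESeq2. Insig1, a sterol sensor, had 199 and 181 CPM at 4 weeks, against 150.5 and 138 CPM at 2 weeks (0.40 ± 0.06, adjusted p = 1.57e-05). Tm7sf2, a sterol reductase, had 1.12 and 2.08 CPM at 4 weeks, against 3.60 and 4.51 CPM at 2 weeks (-1.33 ± 0.33, adjusted p = 0.00304). Its sign turned with the length offset, to 0.43 (adjusted p = 0.658), and its call ended without the first 4-week library (adjusted p = 0.0859) and with DESeq2 (adjusted p = 0.0513).

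Some genes known to be induced by low oxygen fell, while the list of glycolysis and hypoxia genes as a whole was mixed. Of 25 genes, 10 fell and 5 rose, with a median of -0.18, and with all 12 libraries 3 fell. These 3 were Car9, Egln3 and Slc16a3. Car9, the membrane carbonic anhydrase induced by low oxygen, had 18.6 and 21.5 CPM at 4 weeks, against 54.4 and 51.8 CPM at 2 weeks (-1.40 ± 0.12, adjusted p = 1.57e-09). Egln3, an oxygen-sensing prolyl hydroxylase, had 3.48 and 3.39 CPM at 4 weeks, against 10.1 and 12.5 CPM at 2 weeks (-1.72 ± 0.23, adjusted p = 2.45e-06). Slc16a3, the lactate exporter MCT4, had 1.35 and 1.75 CPM at 4 weeks, against 6.25 and 7.46 CPM at 2 weeks (-2.13 ± 0.33, adjusted p = 1.31e-05). The promoters of Car9 and Egln3 are those printed above. Eno1, the glycolytic enolase, had 89.00 and 91.1 CPM at 4 weeks, against 161 and 165 CPM at 2 weeks (-0.85 ± 0.07, adjusted p = 4.11e-10), but 84.3% of its 3′ end is shared, and the call ended with the length offset (adjusted p = 0.12) and with all 12 libraries (adjusted p = 0.18).

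More growth factor genes fell than rose. Of 21 neurotrophic and glial growth factor genes, 8 fell and 3 rose (median -0.39), and 2 in each direction passed with all 12 libraries. Ngfr, the p75 neurotrophin receptor, had 0.898 and 0.328 CPM at 4 weeks, against 5.87 and 5.25 CPM at 2 weeks (-3.16 ± 0.37, adjusted p = 2.64e-07). Igf1, insulin-like growth factor 1, had 5.61 and 4.37 CPM at 4 weeks, against 12.5 and 9.58 CPM at 2 weeks (-1.14 ± 0.22, adjusted p = 0.000221), with an adjusted p of 0.0719 with all 12. Gfra2, a receptor of neurturin, rose and had 31.3 and 26.4 CPM at 4 weeks, against 14.6 and 14.2 CPM at 2 weeks (1.002 ± 0.12, adjusted p = 4.34e-07). Fgf1, acidic fibroblast growth factor, rose and had 14.03 and 14.5 CPM at 4 weeks, against 8.33 and 6.91 CPM at 2 weeks (0.91 ± 0.17, adjusted p = 0.000131). The calls with all 12 libraries were Ngfr, Igf2, Gfra2 and Fgf1, and the 3′ end of Igf2 is wholly shared. Of 16 neuropeptide and granin genes 2 rose and 2 fell. Penk, the enkephalin precursor, had 22.8 and 22.3 CPM at 4 weeks, against 34.1 and 33.4 CPM at 2 weeks (-0.58 ± 0.12, adjusted p = 0.000458), and Cpe, the carboxypeptidase that trims neuropeptides, had 2293 and 2469 CPM at 4 weeks, against 1827 and 1756 CPM at 2 weeks (0.41 ± 0.04, adjusted p = 3.59e-08), neither with all 12 libraries (adjusted p = 0.198 for Penk and 0.657 for Cpe).

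Genes of stress responses, respiration and translation moved in both directions. Of 27 genes of the integrated stress and unfolded protein responses, 8 rose and 5 fell (median -0.08). Atf5, a stress transcription factor, had 20.8 and 21.5 CPM at 4 weeks, against 11.5 and 10.6 CPM at 2 weeks (0.94 ± 0.14, adjusted p = 5.46e-06), and Trib3, a pseudokinase of that response, had 18.5 and 16.95 CPM at 4 weeks, against 9.56 and 9.49 CPM at 2 weeks (0.90 ± 0.15, adjusted p = 5.46e-05). With all 12 libraries the adjusted p was 0.0527 for Atf5 and 0.114 for Trib3. Of 15 immediate early genes 2 rose and 2 fell. Of 28 nuclear genes of the respiratory chain 8 rose and 4 fell (median 0.02, -0.15 with the total-read scaling). Of 30 ribosomal protein genes 11 rose and 4 fell (median 0.14, -0.02 with the total-read scaling), though most of those named share over 46% of their 3′ ends. The 15 mitochondrially encoded genes had 9 rises and 1 fall (median 0.11, -0.05 with the total-read scaling). With all 12 libraries none of the respiratory chain, ribosomal and mitochondrially encoded genes passed in edgeR, where 2, 4 and 2 of them had an unadjusted p under 0.05. DESeq2 called 7 higher and 3 lower, 11 higher and 2 lower, and 9 higher and 1 lower in the same order. All genes of the mitochondrial chromosome together took 36.4 and 37.2% of reads at 4 weeks, against 38.3 and 38.0% at 2 weeks.

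The interferon list was one of those with genes whose change differed between the regions. In midbrain, 7 of 26 genes rose and 1 fell (median 0.18, 0.02 with the total-read scaling), and in cortex none rose and 21 fell (median -1.47), beside 10.8% higher and 11.7% lower of all genes there. The test of the difference between the regions passed for 18 of the 26, all with the higher change in midbrain, beside 10.4% of all genes in that direction. Ifit1, an interferon-induced protein that binds viral RNA, had 67.6 and 70.5 CPM at 4 weeks, against 30.6 and 29.3 CPM at 2 weeks (1.21 ± 0.09, adjusted p = 2.31e-10) in midbrain. In cortex it had 10.6 and 9.17 CPM at 4 weeks, against 50.5 and 59.4 CPM at 2 weeks, and the regions' changes differed by 3.68 ± 0.16 on the log2 scale (adjusted p = 8.1e-15). Ifit3, its partner, had 84.6 and 85.2 CPM at 4 weeks, against 45.4 and 47.3 CPM at 2 weeks (0.87 ± 0.08, adjusted p = 4.4e-09) in midbrain and 32.2 and 38.1 CPM at 4 weeks, against 63.7 and 61.3 CPM at 2 weeks in cortex, a difference of 1.71 ± 0.13 on the log2 scale (adjusted p = 2.03e-10). In these 2 genes the 4-week libraries were above the 2-week libraries in midbrain and below them in cortex. Irf7, the transcription factor that amplifies interferon production, had 13.1 and 14.3 CPM at 4 weeks, against 9.94 and 7.28 CPM at 2 weeks (0.67 ± 0.19, adjusted p = 0.00707) in midbrain and 1.20 and 1.42 CPM at 4 weeks, against 13.7 and 9.73 CPM at 2 weeks in cortex. Its midbrain rise ended without the second 4-week library (adjusted p = 0.0623), without the second 2-week library (adjusted p = 0.121), with DESeq2 (adjusted p = 0.073) and with all 12 libraries (adjusted p = 0.469), while the regions differed by 3.81 ± 0.37 on the log2 scale (adjusted p = 2.78e-08). Oasl2, an oligoadenylate synthetase-like protein, did not pass in midbrain, with 18.97 and 21.9 CPM at 4 weeks, against 16.6 and 15.2 CPM at 2 weeks (0.36 ± 0.14, adjusted p = 0.0531), although it passed there with RLE size factors (adjusted p = 0.0342), with no count filter (adjusted p = 0.0327) and with only the 4 midbrain libraries (adjusted p = 0.0343). It had 2.25 and 1.90 CPM at 4 weeks, against 24.5 and 30.7 CPM at 2 weeks in cortex, a difference of 4.09 ± 0.27 on the log2 scale (adjusted p = 2.73e-11). With all 12 libraries the difference passed for Ifit1 (adjusted p = 0.000312), Ifit3 (adjusted p = 0.0477) and Oasl2 (adjusted p = 0.000326), and not for Irf7 (adjusted p = 0.0669). In midbrain itself 2 genes of the list rose in that fit, Ifit1 and Oas1a, the second with 70.0% of its 3′ end shared, no read at 2 weeks and an adjusted p of 0.266 with DESeq2. Other lists differed too. Of the 26 reactive astrocyte genes, none rose and 22 fell in cortex (median -1.24), and the change was higher in midbrain for 17 and lower for none. Of the 15 mitochondrially encoded genes, 14 rose and none fell in cortex (median 0.58), and the change was lower in midbrain for 11 and higher for 1. Of 15 antigen presentation genes, 1 rose and 6 fell in midbrain (median -0.35), against 1 and 9 in cortex. H2-K1, a classical class I gene, had 116 and 124 CPM at 4 weeks, against 152 and 153 CPM at 2 weeks (-0.35 ± 0.07, adjusted p = 0.000232) in midbrain, with an adjusted p of 0.657 with all 12 libraries.

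**Figure D4:**
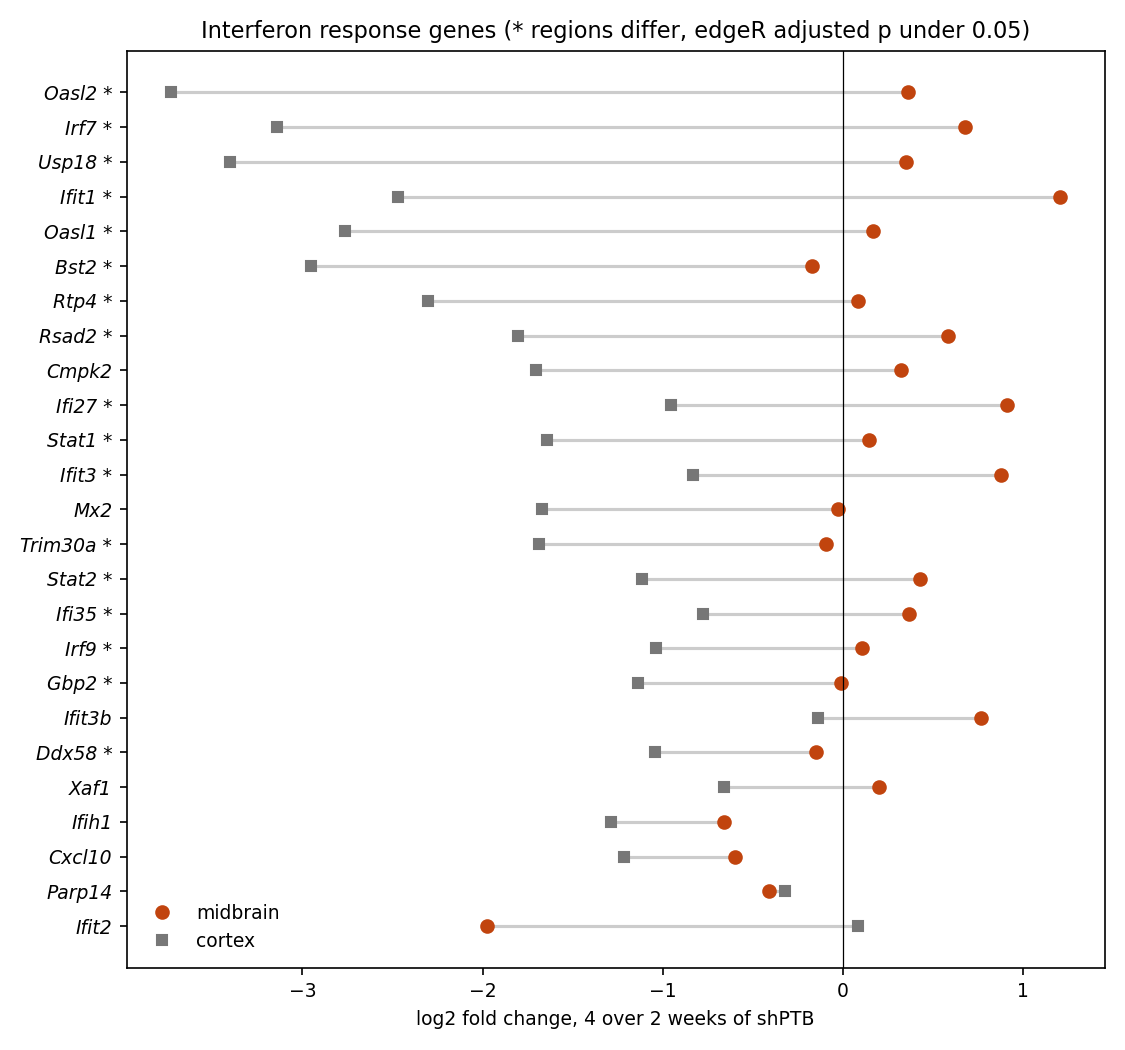
Log2 fold change of 4 over 2 weeks of shPTB in midbrain (circles) and cortex (squares) for 25 of the 26 interferon response genes tested, in order of the difference, with asterisks where the regions differed. Oas1a, with no read in midbrain at 2 weeks, is not drawn, and the midbrain circles lie near or above 0 for most genes while nearly all cortex squares lie below it.

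Over all genes, the regions' changes differed for 2240 of 12401 (18.1%), 1285 with the higher change in midbrain (10.4%) and 955 with the lower (7.70%). The midbrain and cortex comparisons share no library. Of the 1910 genes that rose in midbrain, 679 rose in cortex (35.5% of the midbrain and 50.5% of the cortex rises), and 192 fell there. Of the 1881 that fell in midbrain, 550 fell in cortex (29.2% of the midbrain and 38.1% of the cortex falls), and 119 rose there. Among the genes described above, Ptgds rose in both regions, with 1514 and 1538 CPM at 4 weeks, against 604 and 679 CPM at 2 weeks in cortex, and more in midbrain, by 1.14 ± 0.07 on the log2 scale (adjusted p = 1.12e-11), which ended with all 12 libraries (adjusted p = 0.114). Aldh1a1 rose in both too, with 941 and 895 CPM at 4 weeks, against 272 and 276 CPM at 2 weeks in cortex. Its rise was larger in cortex, a difference of -0.31 ± 0.07 on the log2 scale (adjusted p = 0.00283) that ended with all 12 libraries (adjusted p = 0.852). Chil1 rose in midbrain and fell in cortex, where it had 85.4 and 87.6 CPM at 4 weeks, against 181 and 182 CPM at 2 weeks, a difference of 2.38 ± 0.08 on the log2 scale (adjusted p = 2.03e-17) that held with all 12 libraries (adjusted p = 0.00196). The falls of Dcx and Fcer1g were seen in both regions, and the difference did not pass for either: -0.99 ± 0.54 on the log2 scale (adjusted p = 0.231) for Dcx and 0.39 ± 0.17 on the log2 scale (adjusted p = 0.138) for Fcer1g. Elavl3 fell further in midbrain, with 12.3 and 12.3 CPM at 4 weeks, against 16.2 and 24.2 CPM at 2 weeks in cortex. The difference was -1.33 ± 0.26 on the log2 scale (adjusted p = 0.000586), but it did not pass with all 12 libraries (adjusted p = 0.158). Car9 fell in both regions, and in cortex it had 0.449 and 0 CPM at 4 weeks, against 7.81 and 6.62 CPM at 2 weeks. Its fall was larger in cortex, with a difference of 3.47 ± 0.56 on the log2 scale (adjusted p = 5.96e-05) that ended with all 12 libraries (adjusted p = 0.0607). Abca1 did not pass in cortex, where it had 57.5 and 55.4 CPM at 4 weeks, against 63.9 and 60.5 CPM at 2 weeks. The regions differed for it by -1.07 ± 0.12 on the log2 scale (adjusted p = 4.77e-07), which ended with all 12 libraries (adjusted p = 0.174). For Ptbp1 the difference was 0.42 ± 0.11 on the log2 scale (adjusted p = 0.0105), with 72.9 and 74.5 CPM at 4 weeks, against 60.9 and 61.2 CPM at 2 weeks in cortex. It ended without the first 4-week midbrain library (adjusted p = 0.0598), without the second 2-week midbrain library (adjusted p = 0.0876) and with all 12 libraries (adjusted p = 0.662).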

How the data were processed

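RNA was read towards the 3′ ends of transcripts: per the labels' protocols, cDNA was primed with a biotinylated primer, captured on streptavidin and copied with random primers, with no molecular identifiers described, so PCR copies are counted. The submitters' processing notes name Salmon 0.14.1, cutadapt 2.3 and DESeq2, with build mm10. The authors deposited estimated counts for each transcript in each library, and the deposited TPM values served only to weight transcript lengths in 1 alternative. Transcripts were matched to genes of GENCODE M21 on GRCm38 without version numbers (140137 of 140658, with 521 left out that held 0.0547 to 0.129% of reads), and estimated counts were summed per gene and rounded.

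After filtering on low counts (filterByExpr, with minimums of 10 per library and 15 in total), 12401 genes were tested. Quasi-likelihood models (edgeR 4.0.16, R 4.3.3) were fitted to the 8 shPTB libraries in 4 groups, with TMM scaling, no covariate and 4 residual degrees of freedom. Mock libraries were left out because neither comparison uses them and their replicates may have another spread. Cortex libraries were kept for the test between regions and so that the 4 groups share 1 estimate of the spread. The fit gave the change from 2 to 4 weeks in midbrain and its difference from the change in cortex, adjusted over all genes. Pairs of libraries differed by more than sampling noise (chi-square per degree of freedom 2.49 at 4 and 2.10 at 2 weeks). In the mock pairs the value was 158 for cortex and 115 for midbrain. Each library was fitted as a replicate, although such spread can be technical and does not show that the cultures were separate. The members and the 34 gene lists (789 genes, 592 tested, 36 in more than 1 list) were chosen with earlier results of these data known. Named genes were a fixed set, the 5 members of each list with the largest change past the threshold, the 15 largest changes each way where the higher time averaged 10 CPM or more and libraries did not overlap, and the 5 largest differences between regions in each direction, and a part of them is described; some genes reached by this rule are left out here. A shared 3′ end gives the percentage of 31-mers from a gene's final 500 bases that another gene holds on either strand. On simulated counts (12019 genes, 200 changed), the fit recovered 29.9% of 1.5-fold, 46.3% of 2-fold and 93.9% of 4-fold changes, and 9.6% of its calls were unchanged genes.

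Alternatives were RLE size factors, scaling to total reads, DESeq2 1.42.0, no filter, a strict filter (5 CPM in 2 libraries), all 12 libraries, only the 4 midbrain libraries, a replicate block, a transcript length offset, no mitochondrial genes, and each midbrain library left out.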

Additional observations from a re-analysis of the deposited data

Results flagged for a closer look

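The changes of midbrain and cortex from 2 to 4 weeks were compared in 1 test, and 2240 genes differed. Among the genes fixed by name, the interferon response genes named and the genes named for a large regional difference, 20 differed by an adjusted p under 0.05. Further named genes differed and are not repeated here. Values are the log2 change in midbrain less that in cortex. The interferon response genes Ifit1 (3.68), Ifit3 (1.71), Ifi27 (1.86), Irf7 (3.81) and Oasl2 (4.09) had the higher change in midbrain, which is not a statement about their levels. Oas1a (14.08), an oligoadenylate synthetase, had no read in midbrain at 2 weeks or in cortex at 4 weeks, so its fitted value depends on the prior count and is no bound. The same holds for Gm14434 (9.91), without a read in midbrain at 2 weeks, and for Sprr2b (6.80), a small proline-rich protein without a read in cortex at 4 weeks. Rpl10 (-6.66) has near-identical copies elsewhere.

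Genes whose change was lower in midbrain were Aldh1a7 (-3.13), an aldehyde dehydrogenase, with 66.2 and 74.4 CPM at 4 weeks, against 36.9 and 33.5 CPM at 2 weeks in midbrain, and 789 and 813 CPM at 4 weeks, against 50.0 and 42.0 CPM at 2 weeks in cortex. Others were Adra2a (-1.87), an adrenergic receptor, and Col22a1 (-1.96), a collagen. Cpox (-1.91), an enzyme of haem synthesis, had 10.5 and 12.02 CPM at 4 weeks, against 14.995 and 2.84 CPM at 2 weeks in cortex. Its difference ended with DESeq2 (adjusted p = 0.421), with all 12 libraries (adjusted p = 0.498), with the length offset (adjusted p = 0.253), without the first 4-week midbrain library (adjusted p = 0.137) and without the first 2-week midbrain library (adjusted p = 0.0509). Reg3g (4.19), a secreted lectin, fell in both regions and had 104 and 94.1 CPM at 4 weeks, against 288 and 267 CPM at 2 weeks in midbrain, and 0.749 and 0.158 CPM at 4 weeks, against 25.8 and 23.1 CPM at 2 weeks in cortex. Calb2 (2.04) also fell in both. Ret (1.34), the receptor tyrosine kinase of the GDNF family, fell in cortex and did not pass in midbrain. Gfap (0.43), Ptbp1 (0.42), Ptbp2 (-0.60) and Slc1a3 (-0.33) had smaller differences, none of which passed with all 12 libraries. In that fit the difference also ended for Adra2a (adjusted p = 0.0826), Ifi27 (adjusted p = 0.207), Irf7 (adjusted p = 0.0669), Oas1a (adjusted p = 0.094), Ret (adjusted p = 0.188), Rpl10 (adjusted p = 0.0967) and Sprr2b (adjusted p = 0.0921). The difference for Ptbp2 ended too with DESeq2 (adjusted p = 0.12), the total-read scaling (adjusted p = 0.087), no count filter (adjusted p = 0.062) and the length offset (adjusted p = 0.083). For Slc1a3 it ended with DESeq2 (adjusted p = 0.0754), the total-read scaling (adjusted p = 0.235) and no count filter (adjusted p = 0.0991). Both were also lost when some single midbrain libraries were left out.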

How the results depend on the processing

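The count of genes changed in midbrain (3791) fell to 2298 with DESeq2 and to 388 with all 12 libraries, and the count of regional differences (2240) to 1361 and 60. The cause was not tested. Leaving out 1 midbrain library at a time gave 2649 to 2909 changed genes and 1657 to 1869 regional differences, with a lone library assumed to vary like the other groups. RLE, no filter, the strict filter, the 4 midbrain libraries alone, the length offset and no mitochondrial genes gave 3276 to 3903 changed genes, within 1.5 times. Scaling to total reads moved the higher share of regional differences to 78.0% from 57.4%. A replicate block gave 3827 changed genes and 2245 differences. The labels do not say that numbers pair libraries, and same-numbered libraries deviated together with correlations of -0.002 to 0.059 only. Of 183 named genes called, 126 were called without each library in turn and 58 in every setting run. A setting that did not test a gene, as the strict filter did not for some, was not counted against it in the 58. With the length offset 2 genes changed sign, Thy1 to -0.47 and Tm7sf2 to 0.43, although that offset may not suit reads from towards the 3′ ends. Depth limits genes near the floor of 0.276 to 0.337 CPM.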

Other observations

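A gene class looked at after its values were seen also fell. Of 71 olfactory and vomeronasal receptor genes tested, 43 were lower and 1 was higher at 4 weeks, with a median log2 fold change of -1.80 in midbrain and -0.90 in cortex, beside 15.2% of all genes lower. Their summed level was 214 and 213 CPM at 4 weeks, against 739 and 695 CPM at 2 weeks. Vmn1r227, a vomeronasal receptor with 45.3% of its 3′ end shared, had 40.6 and 42.7 CPM at 4 weeks, against 232 and 230.2 CPM at 2 weeks. Olfr338, an olfactory receptor with 0.213% shared, had 5.95 and 6.23 CPM at 4 weeks, against 52.2 and 49.0 CPM at 2 weeks. Of 107 processed pseudogenes, 45 were lower and 6 higher, with a median of -0.92 in midbrain and 0.00 in cortex. Their summed level went the other way, at 2815 and 2473 CPM at 4 weeks, against 1697 and 1701 CPM at 2 weeks in midbrain. A gene low at one time could enter the test through the libraries where it was high. The shares and medians of both classes may therefore depend in part on the count filter, which was not tested.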
